A study of Mus musculus with 9 samples.

Results

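Gene expression in the uterus of mice given bisphenol B (BPB) was compared with that of mice given the corn oil vehicle alone (control). The comparison rests on 6 of the 9 libraries of the series, BPB 1 to 3 and control 1 to 3. It covers 13046 of the 34619 gene symbols in the files, those at 1 FPKM or more in at least 3 of the 6 libraries. FPKM stands for fragments per kilobase of transcript, divided by the size of the library, so that levels of different genes can be set side by side. All mice were wild-type females of the outbred stock CD-1 (ICR), bought at 7 to 8 weeks of age and housed for 1 week before dosing, on food described as free of estrogen. Both groups were dosed by gavage over 28 days, the BPB group with 300 µg per kg body weight per day. A further group of 3 libraries, from mice given bisphenol AF (BPAF) at the same dose, entered the statistical fit to estimate the spread between libraries, and its values are given where they bear on a BPB result. The stage of the estrous cycle and the time of day at collection are not given in the labels, nor is it said that each library came from a separate mouse. The p-values therefore measure the spread between these libraries, which may be technical. Values of a group are listed in the order of libraries 1, 2 and 3 throughout.

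Bisphenol B is a replacement for bisphenol A, and bisphenols of this kind can bind estrogen receptors. In the uterus, estradiol acts through estrogen receptor alpha, the product of Esr1, to drive division of the epithelium, to induce the progesterone receptor Pgr and to raise secretory and barrier genes such as the Sprr2 family. The uterus lies against the urinary bladder, whose lining, the urothelium, carries a surface of uroplakin proteins and whose muscle contracts in response to acetylcholine and ATP. Uroplakin genes are therefore used as markers of urothelium and are not part of the known uterine program.

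The 6 libraries rested on 12.6 to 15.6 M reads, and 11614 to 13101 genes reached 1 FPKM in each. The mitochondrially encoded protein genes took 34.1% of all FPKM in control 3, 14% and 14.1% in control 1 and 2, and 19.9% to 27.0% in the BPB libraries. The labelled tissue was checked on 10 genes that mark the uterus, such as Hoxa9, all of which were tested. Their summed level was 160, 228 and 132 FPKM in control and 249, 187 and 222 FPKM in BPB. Limma called 0 of them, while 5 had an unadjusted p under 0.05. Of the 10, 6 had a difference above 0 and 4 below, so opposite shifts can offset each other in the sum. BPB lay above control without overlap for 2 and below it for 2, against 19.2% and 6.10% of all tested genes. With median-ratio scaling 1 was called lower, and with the 6 libraries fitted alone 1 was called higher. Markers of the urothelium stood apart. Summed over 15 genes they gave 189, 134 and 229 FPKM in control and 1795, 2682 and 3023 FPKM in BPB, with 1547 FPKM in BPAF 1, 146 in BPAF 2 and 27.8 in BPAF 3. Limma called 12 of these 15 higher in BPB, where 2.44% of all tested genes were called higher, and Upk3a and Foxa1 were listed at 0 in all 3 controls. The calls among the 15 were 3 without BPB 1 and 0 in each of the 5 fits that leave out another of the 6 libraries. They were also 1 with no filter on low values, 3 with a pseudocount of 0.1 and 0 with a pseudocount of 0.01. Of 12 genes listed for bladder muscle and mesenchyme 10 were tested and 8 called higher. All of the 8 but Foxf1 were under 1 FPKM in every control and passed the filter through the BPB libraries alone, which shapes the share called. The calls were 7 with no filter on low values and 6 and 2 with pseudocounts of 0.1 and 0.01. Leaving out 1 library gave 4 to 7. The sum over the 12 genes was 16.4 to 24.5 FPKM in control and 145 to 279 FPKM in BPB, with 54.4 FPKM in BPAF 1, 14.9 in BPAF 2 and 8.74 in BPAF 3. Tbx5, Hoxd13, Isl1 and Shh of that list were listed at 0 in every control. Shh encodes a secreted ligand and is not itself a marker of mesenchyme, but it counts among the calls and in the sum. Markers of squamous epithelium, with 8 of 12 tested and 3 called higher (Krt4, Ivl and Trp63), had a median difference of 3.61, or 0.22 with no filter on low values. Trp63 is in the urothelium list as well. They summed to 35.2, 15.8 and 262 FPKM in control, where control 3 stood apart, and to 694, 992 and 1069 FPKM in BPB. These marker levels move with the BPB group, and their part in the increases below was not tested. In whole tissue, fewer cells of a type and less RNA per cell cannot be told apart.

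**Figure D1:**
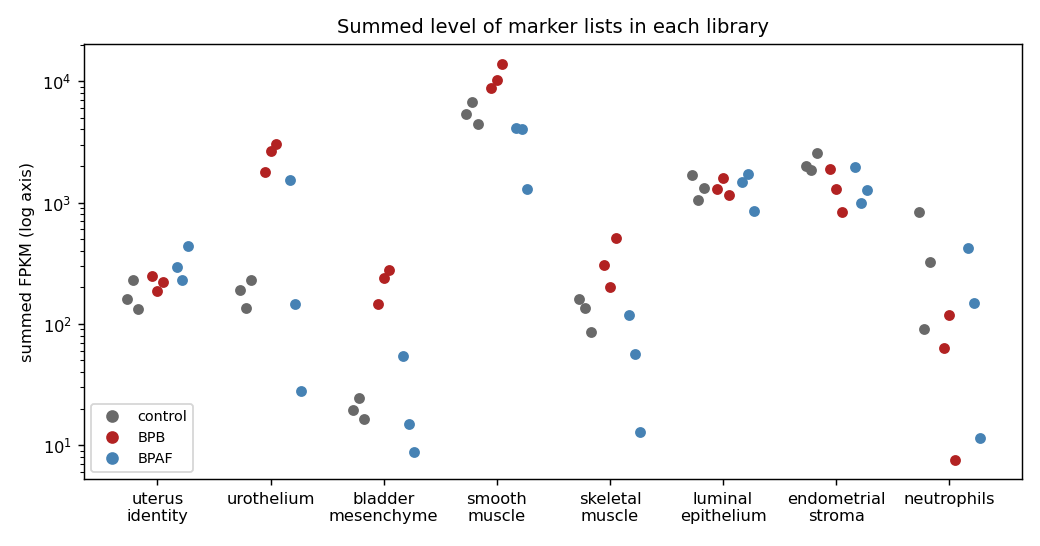
Summed FPKM of 8 marker lists in each of the 9 libraries, on a log axis, with 1 point per library. The sums of the urothelium and bladder mesenchyme lists are higher in all 3 BPB libraries than in any control. In BPAF 1 the urothelium sum is also high and the bladder mesenchyme sum lies above every control and below every BPB library. The sums of uterus identity markers overlap between BPB and control.

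Limma called 392 of the 13046 genes at an adjusted p under 0.05 after the Benjamini-Hochberg method. In BPB 318 of them (2.44%) were higher and 74 (0.567%) lower. Median-ratio scaling of the FPKM gave 229 higher and 120 lower calls and took the median log2 difference over the tested genes from 0.15 to -0.06, a shift against which the list medians below should be seen. No overlap between the groups was seen for 25.3% of the tested genes, with BPB above control for 19.2% and below it for 6.10%. All 392 called genes were of this kind. Of the genes called higher, 169 averaged under 1 FPKM in control, and 24 of those were listed at 0 in all 3 controls. Of the genes called lower, 27 averaged under 1 FPKM in BPB. The log2 differences of called genes, on the scale of log2(FPKM + 1) used for every fold change here, ran from 0.85 to 8.80 among the higher genes, with a median of 1.92. Among the lower genes they ran from -1.04 to -5.45, with a median of -2.08.

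The number of calls depended on single libraries. It was 10 without control 1, 20 without BPB 2 and 11 without BPB 3, and 125, 110 and 248 without control 2, control 3 and BPB 1. All 392 genes kept an unadjusted p under 0.05 in each of these 6 fits, but they had been picked from the same libraries. Their direction could not change in these fits, since the groups did not overlap for any of them. Most lost the adjusted call in at least 1 of the 6 fits, and the counts of called list members fall in the same way. The genes called in each of the 6 fits were 7. These were Pitx1, Foxf1 and Hoxd13, which encode transcription factors that pattern the embryo, the muscarinic receptor gene Chrm2, the collagen cross-linking enzyme gene Lox, Zbtb9 and the predicted gene Gm11946.

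**Figure D2:**
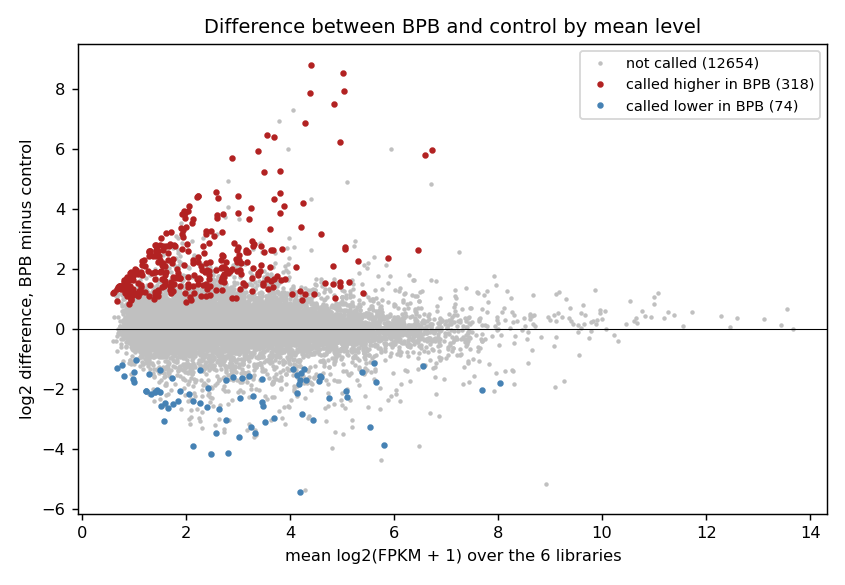
Difference between BPB and control in mean log2(FPKM + 1), on the vertical axis, against the mean over the 6 libraries, on the horizontal axis, with 1 point for each of the 13046 tested genes. Red points are the 318 genes called higher, blue points the 74 called lower and grey points the rest, and many of the red points lie at low mean levels.

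The largest increases were genes of the urothelial surface, beside keratin and envelope genes of squamous epithelium. Upk3a, which encodes a uroplakin, was at 0 FPKM in each control and stood at 335, 484 and 547 FPKM in BPB. Upk1a was at 0.203, 2.98 and 0 FPKM in control and at 497, 653 and 758 FPKM in BPB. Neither gene overlapped between the groups, and BPAF 1 was also high, with 323 FPKM of Upk3a and 400 FPKM of Upk1a. Upk1a rose by 8.54 (SE 1.64, adjusted p = 0.0324 in limma), and this SE also draws on the spread among the BPAF libraries. Upk1b and Upk2 rose by 7.51 and 7.89, and Upk3b, a uroplakin that mesothelium also makes, by 3.87. Snx31, a sorting nexin of umbrella cells, was at 0, 0 and 0.0569 FPKM in control and at 31.4, 62.6 and 71.1 FPKM in BPB. Krt15, a basal keratin, was at 159, 205 and 281 FPKM in BPB and at 4.26 FPKM or less in control. Ivl, a squamous marker that encodes involucrin of the cornified envelope, was at 120, 107 and 104 FPKM in BPB and at 0.742 FPKM or less in control. The claudin genes Cldn4 and Cldn8, whose products seal tight junctions, rose by 2.66 and 4.04. Cldn4 stood at 11.7, 13.1 and 11.7 FPKM in control and at 72.4, 85.1 and 90.6 FPKM in BPB. Scnn1g, a subunit of the epithelial sodium channel, was at 3.96, 9.55 and 14 FPKM in BPB and at 0.0265 FPKM or less in control.

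Several transcription factors of stratified and urothelial epithelium rose with them. Of 21 such genes 16 were tested and 8 were called higher (5 with median-ratio scaling). The median difference was 1.45 over the 16 against 0.15 over all tested genes. With no filter on low values 2 of the 21 were called, with a median of 0.94 against 0.06 over all genes. Pseudocounts of 0.1 and 0.01 gave 3 and 1 calls, and leaving out 1 library gave 0 to 4. At least Foxa1 and Sox15, at 0 in every control, and Gata3, under 1 FPKM there, passed the filter through the BPB libraries alone, which shapes the share called. Foxa1, a pioneer factor, was listed at 0 in control and stood at 12.9, 24.5 and 29.1 FPKM in BPB. Gata3, which marks luminal urothelial identity, was at 0.261, 0.338 and 0.0890 FPKM in control and at 10.3, 18.0 and 16.6 FPKM in BPB. Pparg, a nuclear receptor that drives urothelial maturation, went from 1.09 ± 0.701 FPKM to 13.9 ± 3.20 FPKM (SD, n = 3). Grhl3, required for epithelial barriers, Trp63, the basal epithelial p63 gene, and Sox15 were called higher by 3.84, 2.66 and 3.05, and Sox15 was listed at 0 in all 3 controls. Tbx2, a T-box repressor, had the smallest p of the 8, with 1.43, 2.21 and 1.18 FPKM in control and 23.7, 35.8 and 39.1 FPKM in BPB (log2 difference 3.69, SE 0.52, adjusted p = 0.0157 in limma). Elf3, an epithelial factor already abundant in the uterus, was not called, with 154, 104 and 144 FPKM in control and 23.1, 94.0 and 21.3 FPKM in BPB. Foxq1, a forkhead gene outside the list, rose from 0.862 ± 0.158 FPKM to 71.7 ± 23.4 FPKM.

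Several enzymes that build the ceramides of barrier epithelia also rose, a family singled out after its values were seen. Of 28 tested genes of sphingolipid synthesis and breakdown 6 were called, all higher. Cers3, the ceramide synthase of very long acyl chains, was at 0.306, 1.06 and 2.41 FPKM in control and at 12.5, 21.5 and 24.9 FPKM in BPB. Sptlc3, a subunit of the enzyme that starts the pathway, was at 12.8, 12.7 and 14.7 FPKM in BPB and at 0.243 FPKM or less in control. Acer2, an alkaline ceramidase, rose from 1.94 ± 0.729 FPKM to 59.5 ± 19 FPKM. The hydroxylases Degs2 and Fa2h and the sphingomyelinase Smpd2 rose by 2.21, 2.60 and 1.08. The median of the 28 genes was 0.20, close to that of all genes.

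Genes that encode body position were the second group of increases, and 3 of the 7 genes called in every fit belong to it. The HOX genes pattern the body from head to tail, and the most posterior paralogs act in the bladder, the lower urinary tract and the limbs. Hoxd13 was listed at 0 in control and stood at 4.22, 5.91 and 5.08 FPKM in BPB (log2 difference 2.59, SE 0.28, adjusted p = 0.00772 in limma). Hoxa13 was at 0, 0.0123 and 0.325 FPKM in control and at 4.05, 6.14 and 5.10 FPKM in BPB. Of the 22 HOX genes tested 4 were called, all higher, the others being Hoxa5 and Hoxa7. Hoxa10 and Hoxa11, the paralogs that pattern the uterus itself, were not called. Hoxa10 stood at 14.5, 21.8 and 11.5 FPKM in control and at 43.8, 27.7 and 43.8 FPKM in BPB, and the libraries did not overlap (log2 difference 1.24, SE 0.48, adjusted p = 0.22 in limma).

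Pitx1, a hindlimb and caudal homeobox gene, was at 0, 0 and 0.102 FPKM in control and at 12.2, 17.7 and 13.4 FPKM in BPB (log2 difference 3.88, SE 0.42, adjusted p = 0.00772 in limma). Foxf1, a forkhead gene of visceral mesenchyme, was at 1.07, 1.22 and 0.656 FPKM in control and at 14.6, 20.5 and 13.8 FPKM in BPB. In the BPAF libraries Pitx1 was at 2.29, 0 and 0.0483 FPKM and Foxf1 at 4.97, 1.73 and 3.13 FPKM. Fendrr, the long noncoding RNA transcribed next to Foxf1, and the paralog Foxf2 rose by 2.15 and 1.59. Of 16 T-box genes in the files, a family chosen after its values were seen, 8 were tested and 5 called higher. They were Tbx2, Tbx4, Tbx5, Tbx18 and Tbx20. Tbx5 and Tbx20 were listed at 0 in every control and Tbx4 was under 1 FPKM there. These genes passed the filter through the BPB libraries alone, which shapes the share called. Tbx4, which acts in hindlimb and lung, was at 0.0595, 0.104 and 0.0427 FPKM in control and at 2.01, 4.46 and 2.04 FPKM in BPB. Among 23 tested genes of positional and adventitial fibroblasts, Pi16 and C7, which mark adventitial fibroblasts, were called higher as well, and the 7 calls in the list were all higher. The median of the 23 was 0.68, and 0.37 without control 3. Pi16 rose from 2.40 ± 1.76 FPKM to 13.9 ± 2.60 FPKM.

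**Figure D3:**
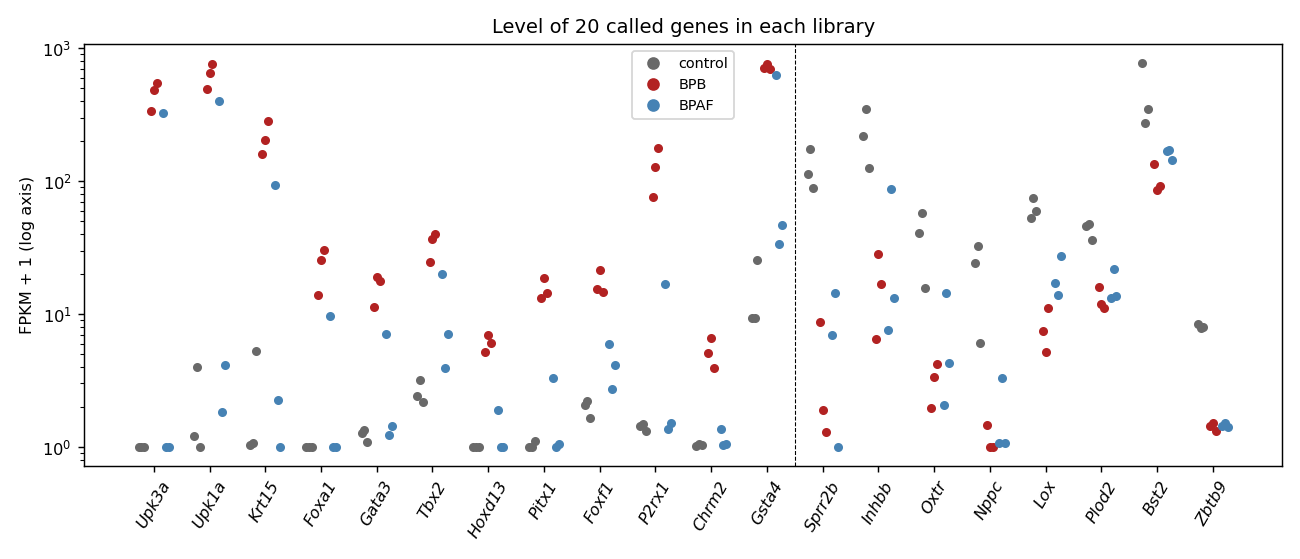
FPKM of 20 genes in each control, BPB and BPAF library, plotted as FPKM + 1 on a log axis, with 1 point per library. The 3 BPB points lie above the 3 control points for the 12 genes on the left and below them for the 8 genes on the right, and for several of the left-hand genes BPAF 1 lies near the BPB points.

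Ligands and feedback genes of developmental pathways were called in small numbers. Over all tested genes 2.44% were called higher and 0.567% lower, and the lists were not tested as sets. Shh, the sonic hedgehog ligand, was listed at 0 in control and stood at 12.8, 24.8 and 28.4 FPKM in BPB. The hedgehog receptor and target Ptch1 missed the threshold, with 1.97, 2.00 and 0.817 FPKM in control and 7.04, 5.17 and 4.71 FPKM in BPB (log2 difference 1.38, SE 0.32, adjusted p = 0.0539 in limma). The target Gli1 overlapped between the groups, with 3.76, 12.3 and 2.44 FPKM in control and 29.8, 18.2 and 9.68 FPKM in BPB. Of 34 tested TGF-beta and BMP genes 3 were called higher and 1, Inhbb, lower. The BMP ligand Bmp3 rose by 2.40 and the BMP-induced repressors Id3 and Id4 by 2.07 and 1.56. Id4 stood at 14.7, 19 and 25.8 FPKM in control and at 55.1, 67.5 and 55.8 FPKM in BPB, and at 27.0, 22.2 and 15.8 FPKM in BPAF. In the NOTCH pathway 2 of 15 tested genes were called, the ligand Jag2 and the feedback inhibitor Nrarp, both higher. Nrarp went from 4.07 ± 1.28 FPKM to 30.1 ± 1.65 FPKM. In the WNT pathway 2 of 33 tested genes were called, the ligand Wnt2 and the feedback inhibitor Nkd1, both higher. Among 19 tested FGF and EGF family genes Fgf1 and Fgfr3 were called higher, by 1.56 and 1.41, and Dusp6 was called lower. Among 19 tested angiogenic genes Vegfb was called higher, by 1.54, and Nrp1 was called lower. Shh, Wnt2, Nkd1, Id3, Nrarp and Fgf1 were called in none of the 6 fits that leave out 1 library. The netrin receptor genes Unc5b and Unc5a, noticed after their values were seen, rose by 1.90 and 2.82.

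Receptors through which nerves and hormones drive smooth muscle changed in both directions. Of 24 tested genes for contraction receptors and channels 5 were called higher and 1 lower. P2rx1, the ATP-gated channel of bladder muscle, was at 0.436, 0.474 and 0.309 FPKM in control and at 74.5, 126 and 177 FPKM in BPB (log2 difference 6.41, SE 0.83, adjusted p = 0.0114 in limma). Chrm2, the most abundant muscarinic receptor of bladder muscle, was at 0.0213, 0.0579 and 0.0255 FPKM in control and at 4.07, 5.62 and 2.91 FPKM in BPB. The vasopressin receptor Avpr1a, the neurokinin receptor Tacr2 and the chloride channel Ano1 rose by 1.90, 1.44 and 1.93. Oxtr, the oxytocin receptor of the uterine muscle and epithelium, was the member called lower. It stood at 39.7, 56.4 and 14.7 FPKM in control and at 0.951, 2.37 and 3.20 FPKM in BPB, and at 1.07, 13.5 and 3.27 FPKM in BPAF. Of 5 neuropeptide Y receptor genes in the files, a family chosen after its values were seen, 3 were tested. All 3, Npy1r, Npy4r and Npy6r, were called higher. Pde5a, the phosphodiesterase that breaks down cyclic GMP in smooth muscle, was at 1.52, 3.72 and 2.58 FPKM in control and at 18.4, 32.2 and 28.0 FPKM in BPB.

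Muscle genes stood higher in BPB, although few passed the test. All 18 smooth muscle markers had a difference above 0, with a median of 1.13. For 14 of them BPB lay above control without overlap, against 19.2% of all tested genes, but limma called 3. The 3 were Synm, Synpo2 and Casq2, which encode a filament protein, an actin-binding protein and a calcium store. Synm stood at 8.09, 12.3 and 3.41 FPKM in control and at 41.5, 87.5 and 103 FPKM in BPB. Acta2, the smooth muscle actin, was at 1568 ± 398 FPKM in control and at 2741 ± 418 FPKM in BPB and was not called (adjusted p = 0.53 in limma). The list summed to 4431 to 6767 FPKM in control, 8797 to 13924 FPKM in BPB and 1304 to 4083 FPKM in BPAF. Of 6 tested skeletal muscle markers 2 were called, Ckm and Myh2, both higher, and other muscle genes named here were chosen after their values were seen. Actc1, the cardiac actin, was at 3.73, 6.29 and 1.52 FPKM in control and at 68.3, 64.7 and 121 FPKM in BPB. Tnnt2, the cardiac troponin T, rose from 0.686 ± 0.220 FPKM to 16.9 ± 8.80 FPKM, and Ckm, the muscle creatine kinase, from 4.72 ± 1.08 FPKM to 60.0 ± 8.80 FPKM. Eno3, the glycolytic enolase of muscle, rose by 2.34 (SE 0.26, adjusted p = 0.00772 in limma), and Myh2, a fast myosin, by 1.67. Skeletal muscle markers summed to 85.3 to 160 FPKM in control and 203 to 510 FPKM in BPB, with Myh1, Myh4 and Pvalb listed at 0 in every control, and their part in these increases was not tested.

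Among the increases were enzymes that conjugate and clear foreign compounds. Of 27 tested genes of glutathione transfer and glutathione synthesis 7 were called, all higher, and the median of the 27 was 1.05. The calls among the 27 were 0 without control 1, BPB 2 or BPB 3 and 0 with a replicate block. They were 2 without control 2 or control 3 and 7 without BPB 1. Gsta4, which detoxifies lipid aldehydes, was at 8.31, 8.37 and 24.4 FPKM in control and at 709, 763 and 704 FPKM in BPB (log2 difference 5.80, SE 0.95, adjusted p = 0.0214 in limma). Gstm1 was at 11.2, 26.3 and 6.27 FPKM in control and at 612, 971 and 988 FPKM in BPB, and a near-identical pseudogene, Gstm2-ps1, makes its value uncertain. Both were also high in BPAF 1, at 632 FPKM for Gsta4 and 449 FPKM for Gstm1, and far lower in BPAF 2 and 3. Gsta2, Gstm3, Gstm4, Gstt3 and Mgst2 rose by 1.82 to 3.16. Fmo5, a flavin monooxygenase, was at 0.464, 0.351 and 0.198 FPKM in control and at 46.6, 103 and 110 FPKM in BPB. Cyp1a1, the textbook target of the aryl hydrocarbon receptor, stood at 0.177, 0.303 and 0.121 FPKM in control and at 1.10, 4.72 and 5.10 FPKM in BPB. The glucuronosyltransferase Ugt2b34 and the export pumps Abcc3 and Abcc4 rose by 3.41, 2.64 and 1.72. Targets of NRF2, the regulator of antioxidant genes, were called higher in 3 of 18 cases (Osgin1, Abcc4 and Me1), in 1 with median-ratio scaling, and the median of the 18 was 0.05, below that of all genes.

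Smaller metabolic and rhythmic groups held further increases. Of 9 tested genes of glycine, alanine and proline breakdown, chosen after their values were seen, 4 were called higher, namely Gldc, Amt, Prodh and Gpt. Gldc, the glycine decarboxylase, was at 0.0530, 0.500 and 0 FPKM in control and at 6.97, 11.9 and 16 FPKM in BPB. Prodh, the proline dehydrogenase, was at 1.35, 2.68 and 1.51 FPKM in control and at 6.87, 6.96 and 6.89 FPKM in BPB, and at 7.14, 4.33 and 7.14 FPKM in BPAF. Of 17 tested clock genes 3 were called, all higher. Nr1d1, which encodes the repressor REV-ERB alpha, was at 3.22, 3.60 and 1.65 FPKM in control and at 14, 37.6 and 28.1 FPKM in BPB (log2 difference 2.79, SE 0.37, adjusted p = 0.0117 in limma). Its paralog Nr1d2 and the clock output factor Dbp rose by 1.41 and 1.98. All 3 genes were also higher in each BPAF library than in any control, with Dbp at 15.7, 8.90 and 7.68 FPKM in BPAF and at 1.41, 1.35 and 1.79 FPKM in control. Srd5a1, the steroid 5-alpha reductase, rose from 2.72 ± 1.5 FPKM to 62.0 ± 18.5 FPKM.

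Genes that estrogen induces in the uterus stood lower in BPB, with few calls. Of 30 listed genes 26 were tested and 5 were called, all lower. BPB lay below control without overlap for 13 of the 26, against 6.10% of all tested genes. The median of the 26 was -2.25, with 19 genes below 0 and 7 above. Leaving out 1 library gave 0 to 2 calls, and pseudocounts of 0.1 and 0.01 gave 1 and 0. Summed over the list, the level was 8339, 3766 and 5683 FPKM in control and 512, 1039 and 296 FPKM in BPB, and 1534, 2010 and 272 FPKM in BPAF. Sprr2b, a cross-linked protein of the uterine epithelium, was at 112, 175 and 88.2 FPKM in control and at 7.69, 0.898 and 0.285 FPKM in BPB (log2 difference -5.45, SE 0.96, adjusted p = 0.0248 in limma). Sprr2f, the most abundant member, was at 3925, 2489 and 2569 FPKM in control and at 283, 250 and 6.37 FPKM in BPB, and was not called (adjusted p = 0.20 in limma). Near-identical copies make the values of single Sprr2 genes uncertain. Inhbb, the beta B subunit of inhibin and activin, was at 218, 347 and 126 FPKM in control and at 5.46, 27.4 and 15.9 FPKM in BPB. Nppc, the C-type natriuretic peptide that estrogen raises, was at 23.2, 31.8 and 5.02 FPKM in control and at 0.460, 0 and 0 FPKM in BPB. Ltf, the lactoferrin gene often used as an estrogen readout, was not called and was uneven among controls, at 811, 77.4 and 318 FPKM, with 60.6, 117 and 7.09 FPKM in BPB. Luminal epithelium markers summed to 1700, 1053 and 1330 FPKM in control and to 1300, 1585 and 1155 FPKM in BPB, and limma called 0 of 12, with 3 at an unadjusted p under 0.05.

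The receptors themselves did not pass the test. Esr1 was at 20.6, 28.1 and 29.6 FPKM in control and at 14.7, 20.1 and 13.2 FPKM in BPB, which do not overlap (log2 difference -0.68, SE 0.32, adjusted p = 0.31 in limma). Pgr was at 44.8, 59.5 and 35.6 FPKM in control and at 12.5, 22.4 and 8.10 FPKM in BPB (log2 difference -1.71, SE 0.42, adjusted p = 0.0629 in limma). Esr2, estrogen receptor beta, was at 0.169 FPKM or less in all 6 libraries and did not enter the test. The membrane receptor gene Gper1 stood at 0.394, 1.14 and 0.732 FPKM in control and at 1.85, 2.28 and 0.295 FPKM in BPB. Of 14 tested steroid receptors and coregulators limma called 0, with 3 at an unadjusted p under 0.05, and 1 was called lower with median-ratio scaling. Akr1c14, a hydroxysteroid dehydrogenase, was called lower, at 142, 112 and 185 FPKM in control and at 8.39, 31.4 and 10.2 FPKM in BPB. Of 16 tested genes of the progesterone and hedgehog axis limma called 0, with 6 at an unadjusted p under 0.05, 14 above 0 and a median of 0.78. With the 6 libraries fitted alone, 2 of these 16 were called higher.

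Membrane proteases of epithelium were called in both directions. Tmprss11d, a serine protease of airway and reproductive epithelium, was at 25.9, 12.6 and 34.5 FPKM in control and at 0, 1.26 and 0 FPKM in BPB (log2 difference -4.16, SE 0.59, adjusted p = 0.0157 in limma). Tmprss11b and Tmprss11e were lower by 2.07 and 2.09. This makes 3 of 5 tested members, of 7 in the files, in a family chosen after its values were seen. Tmprss2, another membrane serine protease of epithelium, rose, at 33.9, 17.3 and 25.8 FPKM in control and 100, 142 and 166 FPKM in BPB. Trim15 was at 12.3, 7.90 and 4.28 FPKM in control and at 0.0184, 0.0344 and 0.0400 FPKM in BPB. Gch1, the first enzyme of tetrahydrobiopterin synthesis, fell from 15.4 ± 6.12 FPKM to 1.5 ± 0.420 FPKM. Pnoc, which encodes the precursor of nociceptin, was at 2.18, 3.01 and 2.42 FPKM in control and at 0.0953, 0.0891 and 0.138 FPKM in BPB. Grpr, the receptor of gastrin-releasing peptide, was at 1.81, 1.54 and 1.19 FPKM in control and at 0.0508 FPKM or less in BPB.

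Several genes that build and remodel the stromal matrix fell, led by Lox. Lox, which cross-links collagen and elastin, was at 52.3, 73.7 and 59.0 FPKM in control, at 6.4, 4.22 and 10.1 FPKM in BPB and at 16.1, 13 and 26.2 FPKM in BPAF (log2 difference -3.04, SE 0.35, adjusted p = 0.00777 in limma for BPB). Plod2, a lysyl hydroxylase that prepares collagen for cross-linking, was at 45.3, 46.6 and 35.1 FPKM in control and at 15.1, 11 and 10.1 FPKM in BPB. It was the only call among 24 tested genes of fibrillar collagens and their processing. Their median was -0.53, which became -1.10 without control 3 and -0.26 without control 2. Col1a2, a chain of collagen I, was at 243, 568 and 200 FPKM in control and at 108, 73.0 and 75.2 FPKM in BPB and was not called (adjusted p = 0.0687 in limma). The matrix proteases Adamts1 and Adamts4, which cut proteoglycans, were lower by 2.07 and 2.31. Adamts1 stood at 46.1, 95.5 and 71.5 FPKM in control and at 18.6, 8.90 and 21.9 FPKM in BPB. Omd, Cilp and Has1, which encode a proteoglycan, a cartilage matrix protein and a hyaluronan synthase, were named after their values were seen and were lower by 1.64, 1.48 and 1.20. Nrp1, a receptor for semaphorins and vascular growth factors, was at 33.8, 29.4 and 26.7 FPKM in control and at 12.0, 10.4 and 8.69 FPKM in BPB. Endometrial stroma markers summed to 1850 to 2548 FPKM in control and 832 to 1904 FPKM in BPB, with Hand1 listed at 0 in every control. Limma called 0 of 11 tested members, with 4 at an unadjusted p under 0.05, and their part in these decreases was not tested.

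Interferon genes stood lower in BPB, mostly without reaching the threshold. Interferon-stimulated genes are switched on by the factor ISGF3, which binds the interferon-stimulated response element. All 30 listed genes were tested and 29 had a difference below 0. BPB lay below control without overlap for 19 of the 30, against 6.10% of all tested genes. Yet limma called 2, Bst2 and Rtp4, and neither with the 6 libraries fitted alone. The median was -1.92 and fell in size to -0.80 without control 1. That library held most of the signal, with a summed level of 3173 FPKM against 483 and 702 FPKM in control 2 and 3 and 380, 198 and 184 FPKM in BPB. Bst2, which tethers budding virus to the cell, was at 773, 272 and 347 FPKM in control and at 134, 84.3 and 90.8 FPKM in BPB (log2 difference -2.04, SE 0.40, adjusted p = 0.035 in limma). Rtp4, a negative regulator of interferon signalling, was at 102, 21.5 and 54.5 FPKM in control and at 11.7, 5.74 and 3.03 FPKM in BPB. Isg15, a ubiquitin-like modifier, was at 457, 30.9 and 86.4 FPKM in control and at 21.8, 7.71 and 3.55 FPKM in BPB. Ifit1, which binds foreign RNA, was at 215, 6.73 and 11.7 FPKM in control and at 2.94, 2.34 and 1.26 FPKM in BPB. Oas1a, which makes the activator of RNase L, was at 130, 14.2 and 21.9 FPKM in control and at 5.82, 5.03 and 2.73 FPKM in BPB. The libraries of these 3 genes did not overlap, but none was called (adjusted p of 0.0894, 0.17 and 0.0695 in limma).

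The promoters of these genes are shown for the element they share. The core of the interferon-stimulated response element, read here as GAAA, any 2 bases and GAAA again, was searched on both strands of RefSeq promoters, taken from 250 bases before to 50 bases after each start (GRCm38.p6). It was found in 13 of the 22 promoters matched to the list (59.1%), in 3.49% of all 27025 promoters in the table and in 2.91% of those of tested genes. Among genes called lower in BPB it was found in 8 of 58 promoters (13.8%), and among those called higher in 4 of 224 (1.79%). A match is a description of the sequence and does not show binding. The stretches below come from Bst2 (chr8:71537572-71537617, minus strand), Isg15 (chr4:156200860-156200911, minus strand), Ifit1 (chr19:34640770-34640828, plus strand) and Oas1a (chr5:120907515-120907560, minus strand). They are written 5′ to 3′ on the strand of the gene, with every base inside a match in capitals, and in Bst2, Isg15 and Oas1a the matches overlap.
Bst2: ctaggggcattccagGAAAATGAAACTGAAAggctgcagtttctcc
Isg15: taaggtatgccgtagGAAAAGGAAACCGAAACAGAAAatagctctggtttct
Ifit1: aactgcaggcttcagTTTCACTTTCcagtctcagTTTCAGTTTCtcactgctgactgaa
Oas1a: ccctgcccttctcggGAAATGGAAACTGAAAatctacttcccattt
Of these, Bst2 alone was called, and it was the most abundant of the 4 in every library.

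**Figure D4:**
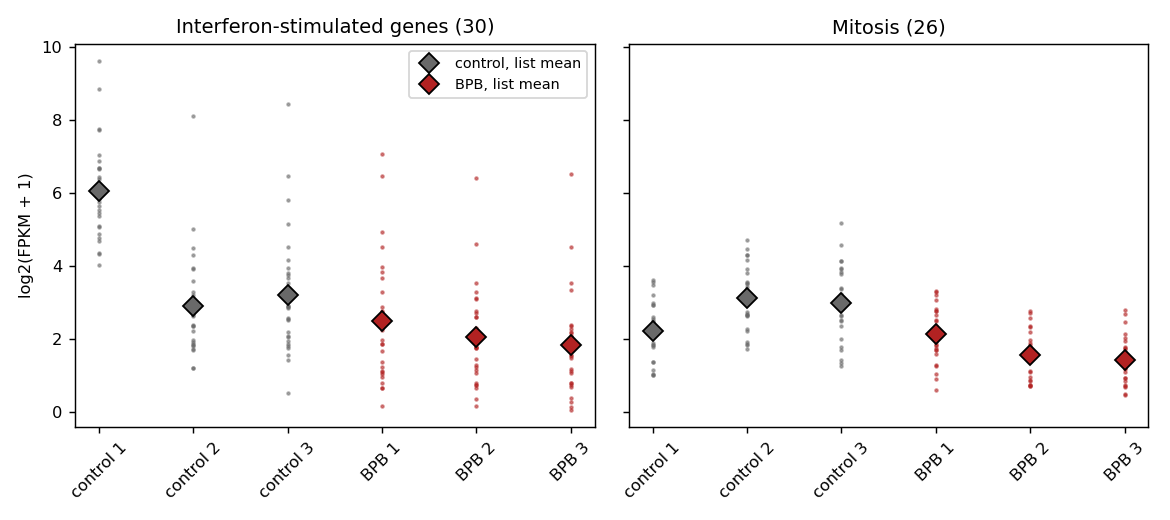
Log2(FPKM + 1) of the 30 interferon-stimulated genes (left) and the 26 mitosis genes (right) in the 6 libraries, with 1 small point per gene and the list mean as a large point. Control 1 is the highest library of the interferon list, and BPB 2 and 3 are the lowest of the mitosis list.

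Several cytokine and signalling genes of inflammation were among the decreases, and a few rose. Of 19 tested chemokine genes 2 were called lower and 1 higher, with a median of -1.20. Ccl7, a monocyte attractant, was at 51.0, 13.1 and 29.1 FPKM in control and at 5.39, 0.560 and 0.279 FPKM in BPB. Ccl12, another monocyte attractant, was at 17.7, 5.13 and 18.4 FPKM in control and at 2.28, 0.427 and 1.16 FPKM in BPB. Ccl24, an eosinophil attractant, was the member called higher, at 0.318 FPKM or less in control and at 2.46, 1.13 and 1.88 FPKM in BPB. Of 17 tested interleukin and TNF family genes 1 was called lower, Il1a, and 1 higher, the receptor gene Il17re, which stood at 2.08, 1.42 and 1.36 FPKM in control and at 3.45, 5.89 and 6.13 FPKM in BPB. Il17re was not called with median-ratio scaling or with the 6 libraries fitted alone. Il1a and Il1f9, cytokines of the interleukin 1 family, were lower by 2.08 and 2.45, and Ifne, the interferon made by the uterine epithelium under estrogen, went from 22.7 ± 14.2 FPKM to 3.67 ± 1.41 FPKM. Socs1 and Socs3, feedback inhibitors of cytokine signalling, and the interleukin 4 receptor gene Il4ra fell by 1.68, 1.57 and 2.14. Dusp6, the phosphatase that limits ERK, was at 93.6, 43.7 and 95.4 FPKM in control and at 12.0, 18.8 and 13.8 FPKM in BPB. Neutrophil markers, of which 3 of 11 were tested and limma called 0 (1 at an unadjusted p under 0.05), summed to 90.3 to 834 FPKM in control and 7.60 to 119 FPKM in BPB, with Ngp and Camp listed at 0 in all controls. Macrophage markers, with 12 of 14 tested and 0 called by limma (1 at an unadjusted p under 0.05), summed to 179 to 356 FPKM in control and 101 to 352 FPKM in BPB. Of these 12, 11 had a difference below 0, with a median of -0.50. The part of either cell type in these decreases was not tested.

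Mitosis genes stood lower in BPB without a call. All 26 mitosis genes were tested and all 26 had a difference below 0, with a median of -1.10. BPB lay below control without overlap for 16 of the 26, against 6.10% of all tested genes. Limma called 0 of the 26 after adjustment, with 10 at an unadjusted p under 0.05. With the 6 libraries fitted alone 1 was called lower. Of 24 tested DNA replication genes limma called 0, with 0 at an unadjusted p under 0.05, a median of -0.32 (-0.52 to -0.07 on leaving out 1 library, the latter without control 2) and BPB overlapping control for each. Their sums were 110, 244 and 138 FPKM in control and 161, 105 and 94.5 FPKM in BPB. Mki67, the proliferation marker, was at 11.3, 21 and 35.2 FPKM in control and at 8.96, 4.88 and 4.53 FPKM in BPB (log2 difference -1.64, SE 0.55, adjusted p = 0.16 in limma). Ccnb1, the mitotic cyclin, was at 1.22, 2.55 and 2.42 FPKM in control and at 0.511, 0.621 and 0.371 FPKM in BPB. Plk2, a kinase induced by p53, was called lower, at 45.1, 123 and 37.2 FPKM in control and at 14.4, 11.5 and 8.44 FPKM in BPB. Of 22 cholesterol genes 21 had a difference below 0, with a median of -0.73, which was -0.47 without control 1 and -1.17 without control 3. Cyp51, which demethylates lanosterol, was the only call among them, at 39.7, 31.6 and 25.8 FPKM in control and at 8.79, 9.80 and 9.19 FPKM in BPB. Fatty acid genes leaned the other way, with 23 of 26 above 0, a median of 0.62 and 0 called by limma, 10 of them at an unadjusted p under 0.05. Adipocyte markers, with 10 of 12 tested and 1 called higher (Plin4, a lipid droplet protein, not called with median-ratio scaling), summed to 200, 171 and 181 FPKM in control and to 1041, 443 and 151 FPKM in BPB, so that BPB 3 lay below every control. Of the 10, 8 were above 0, with a median of 1.17 (0.52 without BPB 1, 1.80 without BPB 3) and Ucp1 listed at 0 in all controls, and their part in the fatty acid values was not tested. Of 27 tested genes linked to uterine tumours and endometriosis limma called 0, with 3 at an unadjusted p under 0.05 and a median of 0.26 (0.07 without control 3). Of 21 tested DNA methylation and chromatin genes it called 0, with 0 at an unadjusted p under 0.05 and a median of 0.15 (0.05 without control 3).

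**Figure D5:**
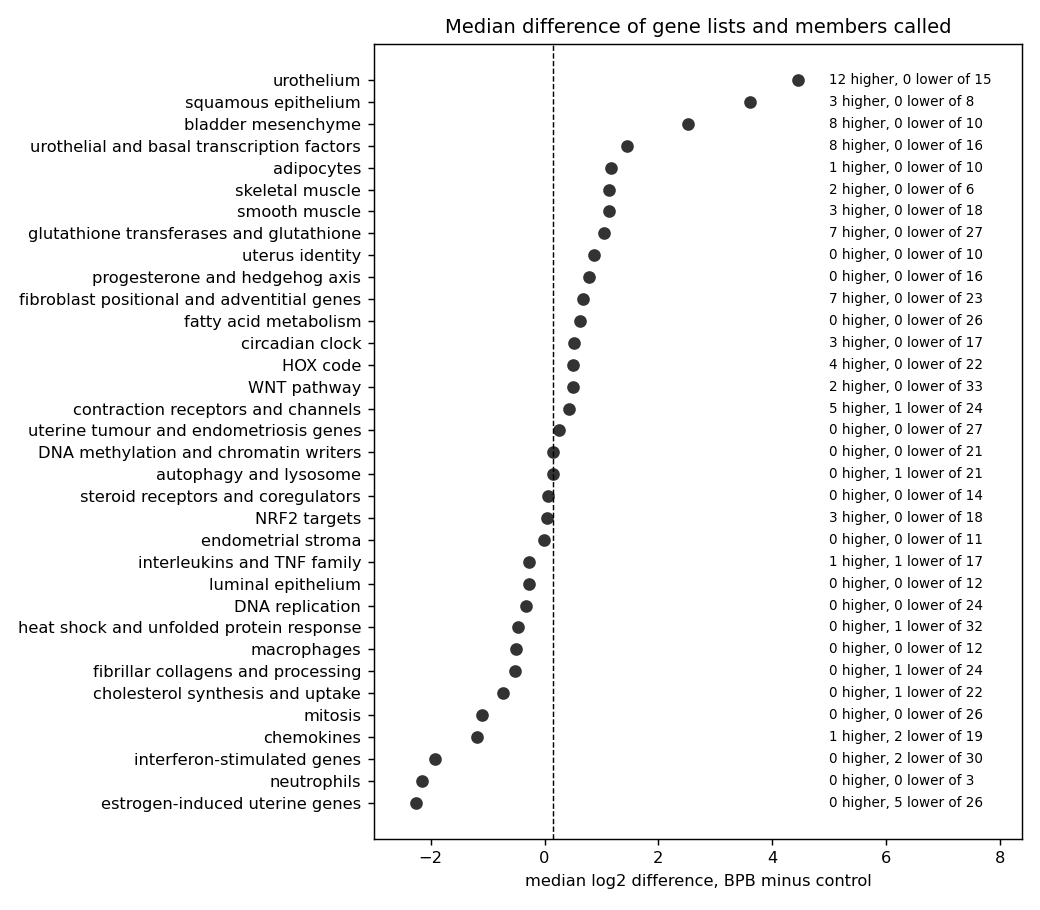
Median log2 difference, BPB minus control, of 34 gene lists, with the number of tested members called higher and lower written beside each point. The dashed line is the median of all 13046 tested genes, 0.15, and the urothelium, squamous epithelium and bladder mesenchyme lists lie farthest above it, while the estrogen-induced, neutrophil and interferon lists lie farthest below it.

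Genes of the lysosome and the secretory path were called lower in small numbers. Ctsl, the lysosomal protease cathepsin L, was at 559, 310 and 683 FPKM in control and at 174, 103 and 153 FPKM in BPB. It was the only call among 21 tested genes of autophagy and the lysosome. Sdf2l1, a chaperone partner of the endoplasmic reticulum, was the only call among 32 tested heat shock and unfolded protein response genes. It stood at 37.1, 37.1 and 49.8 FPKM in control and at 20.9, 7.40 and 13.8 FPKM in BPB. Of the 32, 26 had a difference below 0, with a median of -0.47 and 14 at an unadjusted p under 0.05. BPB lay below control without overlap for 11 of them and above it for 3, against 6.10% and 19.2% of all tested genes. With the 6 libraries fitted alone neither Ctsl nor Sdf2l1 was called. Ssr2, a subunit of the complex beside the protein translocation channel, went from 72.4 ± 2.92 FPKM to 32.3 ± 3.99 FPKM. Cd164, a surface sialomucin, went from 145 ± 28.1 FPKM to 60.8 ± 4.99 FPKM. The control libraries of Ssr2 lay within 70.1 to 75.7 FPKM.

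Zbtb9 had the smallest p of all genes. It was at 7.46, 6.83 and 6.97 FPKM in control and at 0.441, 0.503 and 0.320 FPKM in BPB, with little spread in either group (log2 difference -2.51, SE 0.19, adjusted p = 0.00207 in limma). In BPAF it was at 0.446, 0.514 and 0.401 FPKM. Ggnbp1, whose exons overlap those of Zbtb9 on the same strand in GENCODE M21, went the other way, at 0.304, 0.487 and 0.315 FPKM in control and at 3.53, 4.0 and 5.06 FPKM in BPB, and at 4.33, 4.13 and 5.54 FPKM in BPAF. Reads of the shared exons could have been given to either gene, so both values are uncertain. Exon overlap with another gene on either strand was found for 127 of the 392 called genes. Among the genes named above it touches Gata3, Shh, Sox15, Foxq1, Degs2, Smpd2, Hoxa7, Pitx1, Foxf1, Foxf2, Tbx18, Pi16, Id4, Nrarp, Fgfr3, Unc5a, Chrm2, Pde5a, Synm, Ckm, Myh2, Gstt3, Me1, Nr1d1, Dbp, Plin4, Srd5a1, Gm11946, Akr1c14, Plod2, Adamts4, Lox, Nrp1, Rtp4, Il1a, Il4ra, Cyp51, Ctsl, Ssr2 and Cebpb. Whether the counting used the strand is not given in the sources used here. Cebpb, a transcription factor required for decidualization, was lower, at 69.5, 54.6 and 80.8 FPKM in control and at 28.6, 21.5 and 23 FPKM in BPB.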

How the data were processed

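Uterus RNA was sequenced after a stranded mRNA library kit, per the labels' protocols. The files that the authors deposited, 1 per library, list gene symbols with an unlabelled value. These were taken to be FPKM made by the authors, because for genes with 1 transcript in GENCODE M21 they are whole multiples of a step set by transcript length. Within 0.02 reads this held for 92.7% to 93.5% of low values, and the step gave the 12.6 to 15.6 M reads per library, which set the precision of low values. For the aligner, counter, build and annotation, nothing is given in the sources used here. Of 34745 lines, 126 with repeated symbols were left out.

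Genes at 1 FPKM or more in at least 3 of the 6 libraries were tested on log2(FPKM + 1), with a pseudocount of 1, in limma 3.58.1 (R 4.3.3) with trend and robust estimation. All 9 libraries entered the fit. Tests were two-sided, adjusted over all 13046 genes and called at 0.05. Groups came from the sample titles. As the unit was FPKM, the count test that the design had allowed for was not used.

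The comparison, the 87 gene lists and the naming rule were chosen with earlier results of these data known. In each direction the rule took the 15 largest called differences without overlap at 1 FPKM or more in the higher group (unnamed gene models left out), the 10 called genes with the smallest adjusted p and the 10 most abundant, then 2 to 4 genes per list, and Esr1, Esr2, Pgr, Gper1 and Mki67; not all are described. Other named genes and the families said to be so were chosen after their values were seen. At least 1 gene the rule took is not reported here. Alternatives were other filters, pseudocounts of 0.1 and 0.01, the 6 libraries alone, limma without trend or robust estimation, a replicate block, other scalings and each library left out. Promoters came from RefSeq on GRCm38.p6.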

Additional observations from a re-analysis of the deposited data

How the results depend on the processing

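Against 392 calls (318 higher, 74 lower), 3305 genes without overlap and 110 called list members, the calls numbered 171 (143 and 28) with no filter on low values, 200 (152 and 48) at 5 FPKM, 163 (139 and 24) with a pseudocount of 0.1 and 66 (58 and 8) with 0.01. Genes without overlap were 4968 with no filter and 1762 at 5 FPKM, and called list members 37 with no filter and 45 and 19 with the smaller pseudocounts. Median-ratio scaling gave 120 lower calls and kept 302 of the 392 genes, and the NRF2, steroid receptor, lysosome and DNA methylation medians then fell below 0. Leaving out 1 library gave 10 to 248 calls, 6 to 214 higher and 2 to 45 lower, 3812 to 5509 genes without overlap and 6 to 65 called list members. The cause of these shifts was not tested, except that a fit with 1 library fewer has fewer samples. All 392 genes kept their direction in every alternative that tested them, which their lack of overlap fixed in advance except where the FPKM were rescaled. Of the 392, 145 were called in none of the 6 fits that leave out 1 library. Same-numbered libraries of the groups did not deviate together (r of -0.40, -0.11 and -0.41 across genes), so the numbers were not taken to pair them, and a replicate block gave 30 calls (17 higher, 13 lower) with 13 list members. The median SD of log2(FPKM + 1) between libraries was 0.43 in control, 0.27 in BPB and 0.34 in BPAF. The spread of all 3 groups entered the fit, which with 3 libraries a group limits the size of difference that can be called.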

Other observations

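Further genes were called higher, mostly outside the lists, and they are given here as values chosen after they were seen. Ngb, which encodes neuroglobin, was at 0.275, 0.324 and 0.301 FPKM in control and at 7.12, 12.0 and 6.08 FPKM in BPB. Smad9, a mediator of BMP signals, was at 0.123, 0.107 and 0.133 FPKM in control and at 2.12, 3.60 and 3.40 FPKM in BPB, and at 0.842, 0.0893 and 0.306 FPKM in BPAF. Phlda2, an imprinted growth gene, was listed at 0 in control and stood at 4.34, 5.92 and 5.32 FPKM in BPB. Enho and Dnaic1, whose exons overlap on opposite strands in GENCODE M21, were both called higher, at 85.8 ± 3.23 FPKM and 6.14 ± 0.891 FPKM in BPB and at 1.32 ± 0.732 FPKM and 0.0219 ± 0.0379 FPKM in control (SD, n = 3).

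Some abundant decreases were in none of the lists. Bzw1, a regulator of translation start, was at 98.2, 97.2 and 82.1 FPKM in control, at 18.6, 22.4 and 44.1 FPKM in BPB and at 52.0 to 104 FPKM in BPAF, so that the BPAF libraries lay above all BPB libraries. Slc34a2, a phosphate transporter, was at 14.6, 5.17 and 9.72 FPKM in control and at 1.14, 2.04 and 0.10 FPKM in BPB. Mfsd2a, a lysolipid transporter, went from 9.83 ± 2.60 FPKM to 1.76 ± 0.553 FPKM, and Prom1, a marker of epithelial progenitors, from 12.4 ± 4.07 FPKM to 3.31 ± 0.691 FPKM. Limma called all 4 of these genes lower, and exons of Prom1 overlap those of Gm16401 on the opposite strand.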
